A study of Mus musculus with 2 samples.

Results

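The genes of antigen presentation were followed by RNA sequencing in 2 libraries of mouse dorsal root ganglia, where the somata of sensory neurons sit among their glia and resident immune cells. The members are every row whose symbol starts with H2-, other than H2-Ke6, plus B2m, Cd74, Ciita, Nlrc5, Tap1, Tap2, Tapbp, Psmb8, Psmb9 and Psmb10. These are 52 of the 23282 rows counted, made up of 32 class I rows, 10 class II rows and 10 rows outside the H2 family.

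Both groups were wild-type mice, and the labels name neither strain, age nor sex. The AEW group had its skin made dry with acetone, ether and water (AEW), a model of itch, for 5 days running, and ganglia were collected on day 6. The control group received water. Each library came from RNA pooled over 6 mice, so no difference here has a replicate check and no test across animals was possible. The AEW library held 14376228 counts and the control library 9333882.

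MHC class I molecules pair a heavy chain with beta-2 microglobulin and show peptides made in the cytosol on nearly every nucleated cell. Those peptides are cut by the proteasome and its immune variant, carried into the endoplasmic reticulum by the TAP transporter and loaded with the help of tapasin. MHC class II molecules pair an alpha with a beta chain, are escorted by the invariant chain and show peptides from endocytosed protein, mainly on macrophages, dendritic cells and B cells. In sensory ganglia the resident macrophages are the best known cells with class II.

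Class II transcripts made up a smaller part of the AEW library than of the control library, while class I transcripts differed little. Summed over the 10 class II rows there were 5186 counts in the AEW library and 6395 in the control library, which is 349.9 and 706.3 CPM (counts divided by the scaled library size, times 1000000). The class II sum was therefore 2.02-fold lower in the AEW library (95% counting interval 1.95 to 2.09). The 32 class I rows summed to 8860 counts in the AEW library and 6283 in the control library, or 597.8 and 693.9 CPM. That is a ratio of 0.861 (0.834 to 0.890), short of the 1.5-fold used for calls. Intervals here are exact, cover counting error only, and compare these 2 libraries rather than the treatments.

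The quotient of class II to class I counts needs no library scaling. It was 0.585 in the AEW library and 1.02 in the control library, 1.74-fold lower in the AEW library (1.66 to 1.83). Taking only the 3 classical class II genes H2-Aa, H2-Ab1 and H2-Eb1 over H2-K1 and H2-D1, it was 0.538 in the AEW library and 0.967 in the control library, 1.80-fold lower (1.71 to 1.89). The quotient only compares the libraries, because reads per molecule may differ between genes.

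**Figure D1:**
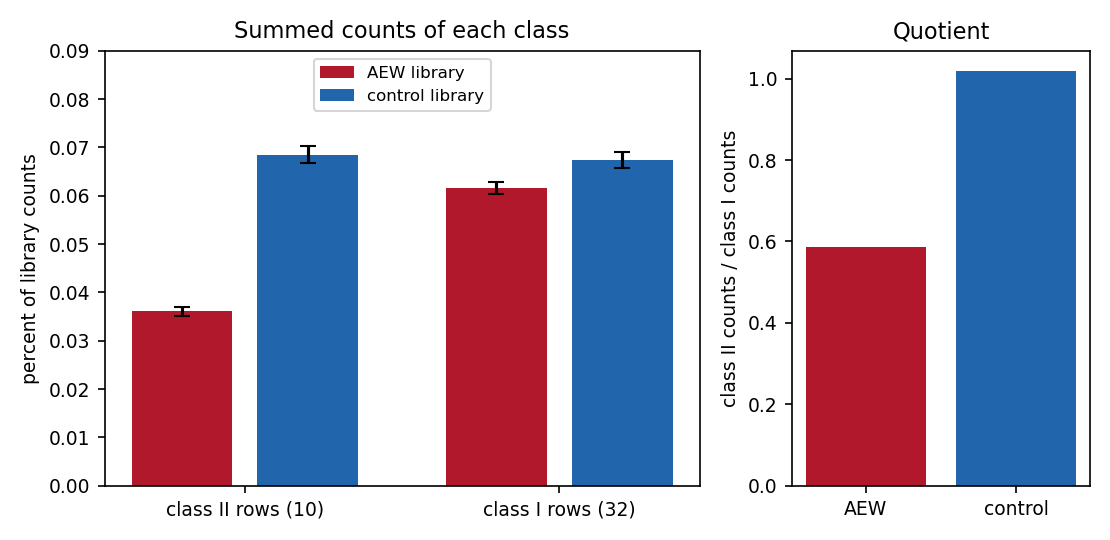
Left, summed counts of the class II and class I rows as percent of all library counts, in the AEW library and the control library, with exact 95% binomial intervals. Class II took 0.0361% of AEW counts and 0.0685% of control counts, class I took 0.0616% and 0.0673%. Right, the class II to class I quotient, 0.585 in the AEW library and 1.02 in the control library.

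Genes with at least 20 counts over both libraries count as measured. A measured gene was called higher or lower when the ratio of the AEW to the control library reached 1.5-fold and its interval excluded 1. Of the 52 members 27 were measured, 10 had fewer counts and 15 had none in either library. Of the 27 measured members, 9 were called lower in the AEW library, where 14.9% of all 14854 measured genes were, and 3 were called higher, where 17.3% of all measured genes were. The median log2 ratio of the measured members was -0.26, and that of all measured genes 0.03. By class, 4 of 6 measured class II rows were lower and none higher, with a median log2 ratio of -0.99, whereas 2 of 12 measured class I rows were lower and 2 higher, with a median of -0.25, which turned to 0.02 over the 6 class I rows with at least 100 counts. No member kept its call when the log2 ratio also had to lie over 3 scaled median absolute deviations from genes of like expression, a limit that 162 measured genes passed as higher and 73 as lower.

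**Figure D2:**
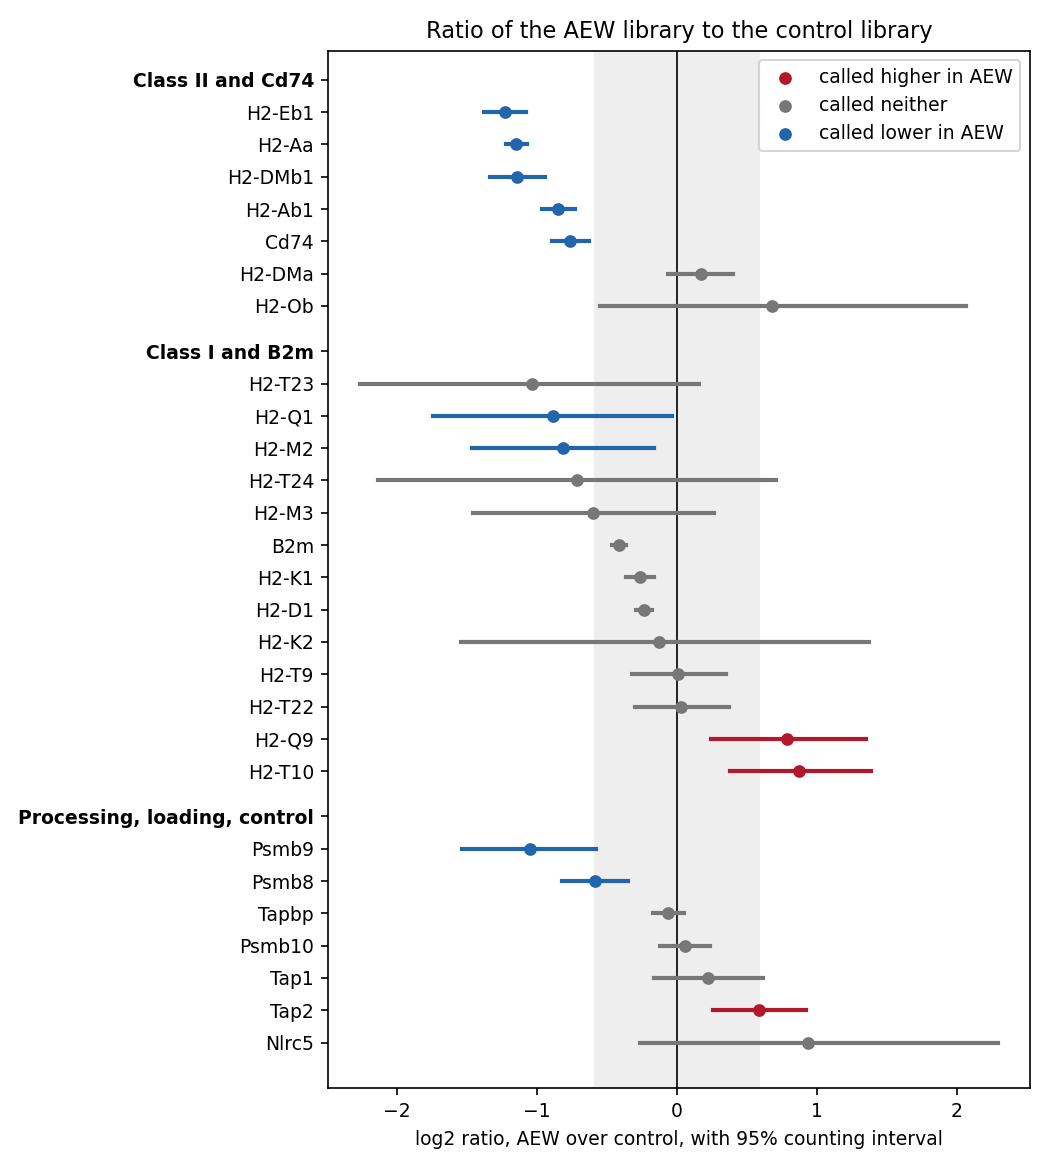
Log2 ratio of the AEW library over the control library for the 27 measured members, with exact 95% counting intervals, and the band between 1.5-fold lower and 1.5-fold higher shaded. The classical class II genes, H2-DMb1 and Cd74 lie left of the band, H2-K1, H2-D1 and B2m lie inside it, and H2-Q9 and H2-T10 lie to its right.

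The promoters of 4 members are given because the 2 classes are known to be driven through different combinations of short elements. Each is the stretch of 200 bases before the RefSeq start site on GRCm38.p6, 5′ to 3′ on the strand of the gene. Capitals mark matches, on either strand, to the Y box core ATTGG, the X box pattern (AG, a gap of 2 bases, AC, a gap of 1 base, GATG), the cyclic AMP element core TGACG, the NF-kappaB pattern (GGGGA, a gap of 1 base, TCCCC) and the interferon-stimulated response element pattern (GAAA, a gap of 2 bases, GAAA). H2-Aa is at chr17:34287824-34288023, minus strand. H2-Eb1 is at chr17:34305667-34305866, plus strand. H2-K1 is at chr17:34000348-34000547, minus strand, and is the first of its RefSeq entries. B2m is at chr2:122147487-122147686, plus strand.
H2-Aa: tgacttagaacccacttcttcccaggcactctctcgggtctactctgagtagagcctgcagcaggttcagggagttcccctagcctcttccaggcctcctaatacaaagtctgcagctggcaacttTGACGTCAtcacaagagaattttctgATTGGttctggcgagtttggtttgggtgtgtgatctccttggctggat
H2-Eb1: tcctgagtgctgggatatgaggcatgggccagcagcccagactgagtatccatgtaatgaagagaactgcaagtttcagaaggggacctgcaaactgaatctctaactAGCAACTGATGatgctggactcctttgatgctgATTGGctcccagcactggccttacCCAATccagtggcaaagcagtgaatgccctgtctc
H2-K1: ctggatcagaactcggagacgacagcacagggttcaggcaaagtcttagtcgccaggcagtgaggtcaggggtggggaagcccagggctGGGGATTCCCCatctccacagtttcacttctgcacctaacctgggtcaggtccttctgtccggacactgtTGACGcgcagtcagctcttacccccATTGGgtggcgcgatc
B2m: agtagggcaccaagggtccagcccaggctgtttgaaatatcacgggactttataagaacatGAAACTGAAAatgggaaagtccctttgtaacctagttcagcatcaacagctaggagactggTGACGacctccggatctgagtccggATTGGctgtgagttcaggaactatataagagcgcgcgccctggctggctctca

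RefSeq promoter entries matched 36 of the 52 members, 22 of class I and 8 of class II. The Y box core was found in 7 of 8 class II windows and 19 of 22 class I windows, and in 29.3% of all 32851 promoter windows of that length. The X box pattern was found in 4 of 8 class II windows, those of H2-Eb1, H2-Eb2, H2-DMb1 and H2-Oa, in no class I window, in that of Psmb10 and in 0.575% of all. The NF-kappaB pattern was found in 3 class I windows, those of H2-K1, H2-D1 and H2-Q6, in no class II window and in 0.0426% of all. The response element pattern was found upstream of B2m, H2-T22 and H2-T23 and in 2.27% of all. The cyclic AMP core was found in 10 class I windows, 1 class II window, those of B2m, Psmb9 and Tap1 and 15.7% of all, and in H2-Aa its matches on both strands overlap each other. In H2-Eb1 the X box starts 92 bases and the nearer Y box core 59 bases upstream of the start site. In H2-DMb1 these distances are 95 and 61 bases. A match is only a match of letters.

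The classical class II genes encode the chains of the peptide-presenting heterodimers, and every measured one was lower in the AEW library. H2-Aa, the alpha chain of the A molecule (ENSMUSG00000036594.15, chromosome 17, 34282744 to 34287823, minus strand), was covered by 2582 counts in the AEW library and 3488 in the control library, or 174.2 and 385.2 CPM. It was 2.21-fold lower (2.10 to 2.33) and took 49.8% of AEW class II counts and 54.5% of those in the control. H2-Ab1, its beta chain partner (ENSMUSG00000073421.6, chromosome 17, 34257689 to 34269419, plus strand), had 1141 counts in the AEW library and 1254 in the control library, or 77.0 and 138.5 CPM. It was 1.80-fold lower (1.66 to 1.95). H2-Eb1, the beta chain of the E molecule (ENSMUSG00000060586.11, chromosome 17, 34305867 to 34316674, plus strand), had 620 counts in the AEW library and 885 in the control library, or 41.8 and 97.7 CPM, and was 2.34-fold lower (2.11 to 2.59).

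The 3 genes were not lower by the same amount. The quotient of H2-Aa to H2-Ab1 counts was 2.26 in the AEW library and 2.78 in the control library, a ratio of 0.814 (0.739 to 0.896). That of H2-Aa to H2-Eb1 was 4.16 in the AEW library and 3.94 in the control library, with an interval of 0.941 to 1.19 for its ratio that includes 1. H2-Ab1 thus stood apart from its partner chain by more than counting error. The E alpha row, H2-Ea-ps, annotated as a polymorphic pseudogene, had 0 counts in both libraries, which allows up to 0.202 CPM in the AEW library and 0.331 CPM in the control library. H2-Eb2, a second E beta gene, had 1 count in the AEW library and 2 in the control library.

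Cd74, the invariant chain that escorts class II molecules to endosomes, had 958 counts in the AEW library and 991 in the control library, or 64.6 and 109.5 CPM. It was 1.69-fold lower (1.55 to 1.85), less than the class II sum. The quotient of Cd74 to class II counts was 0.185 in the AEW library and 0.155 in the control library, a ratio of 1.19 (1.08 to 1.31).

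The non-classical class II chains do not present peptide at the surface. DM exchanges peptides on class II molecules in endosomes, and DO restrains DM. The DM chains differed from each other. H2-DMb1, a DM beta chain (ENSMUSG00000079547.4, chromosome 17, 34153072 to 34160230, plus strand), had 373 counts in the AEW library and 502 in the control library, or 25.2 and 55.4 CPM, and was 2.20-fold lower (1.92 to 2.53). H2-DMa, the DM alpha chain (ENSMUSG00000037649.10, chromosome 17, 34119541 to 34139101, plus strand), had 442 counts in the AEW library and 240 in the control library, or 29.8 and 26.5 CPM, a ratio of 1.13 (0.959 to 1.32). The quotient of H2-DMa to H2-DMb1 counts was 1.18 in the AEW library and 0.478 in the control library, 2.48-fold higher in the AEW library (2.01 to 3.06). That of H2-DMb1 to H2-Aa was 0.144 in both libraries.

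Annotated exons of H2-DMa share 360 of 3448 bases with Brd2, a gene on the opposite strand that encodes a chromatin reader. Brd2 had 3453 counts in the AEW library and 1871 in the control library, a ratio of 1.13 (1.07 to 1.19), close to that of H2-DMa. The sources used here do not say whether counting used strand, and the part of Brd2 reads in the H2-DMa count was not tested. H2-DMb1 shares 22.7% of its stretches of 50 bases with H2-DMb2, a second DM beta gene. Over the last 500 bases, 27.4% of the H2-DMb1 stretches occur in another gene. H2-DMb2 had 3 counts in the AEW library and 5 in the control library.

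The DO chains were near the limit of detection. H2-Ob, the DO beta chain, had 21 counts in the AEW library and 8 in the control library, a ratio of 1.60 whose interval of 0.682 to 4.19 includes 1. H2-Oa, the DO alpha chain, had 3 counts in the AEW library and 11 in the control library, a ratio of 0.167 (0.0298 to 0.631), under the count needed for a call. Ciita, the transactivator on which class II transcription depends, had 4 counts in the AEW library and 3 in the control library, so a difference in it was not detectable at this depth.

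**Figure D3:**
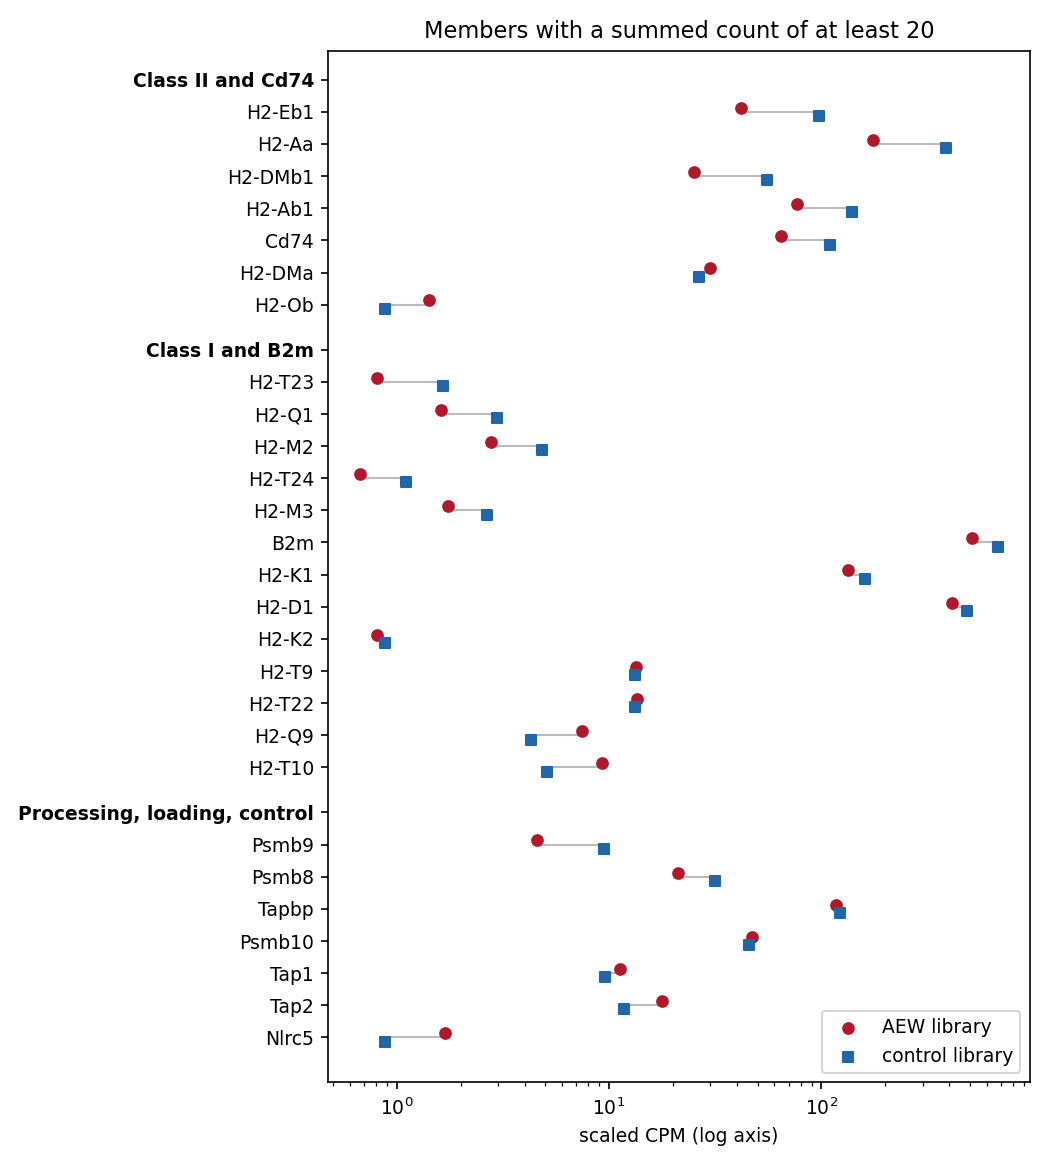
Scaled CPM of each measured member on a log axis, with the AEW library as circles and the control library as squares. The largest gaps among abundant members are those of H2-Aa (174.2 CPM in the AEW library and 385.2 in the control library) and H2-Eb1 (41.8 and 97.7), while the circles and squares of Tapbp, Psmb10, H2-T22 and H2-T9 nearly coincide.

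The class Ia genes H2-D1 and H2-K1 encode heavy chains that present peptides to CD8 T cells, and both differed little between the libraries. H2-D1 (ENSMUSG00000073411.11, chromosome 17, 35262730 to 35267499, plus strand) had 6096 counts in the AEW library and 4373 in the control library, or 411.3 and 483.0 CPM, a ratio of 0.852 (0.819 to 0.886). H2-K1 (ENSMUSG00000061232.16, chromosome 17, 33996017 to 34000347, minus strand) was covered by 1975 counts in the AEW library and 1447 in the control library, or 133.3 and 159.8 CPM, a ratio of 0.834 (0.779 to 0.893). Their intervals lie below 1 but above 1.5-fold lower. The quotient of H2-D1 to H2-K1 was 3.09 in the AEW library and 3.02 in the control library, with an interval of 0.944 to 1.11 for its ratio. H2-D1 took 68.8% of class I counts in the AEW library and 69.6% in the control library.

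B2m, the light chain shared by class I molecules (ENSMUSG00000060802.8, chromosome 2, 122147686 to 122153083, plus strand), had 7544 counts in the AEW library and 6126 in the control library, or 509.0 and 676.6 CPM. Its ratio of 0.752 (0.727 to 0.778) was not called. It was further from 1 than that of the heavy chains, since the quotient of B2m to class I counts was 0.851 in the AEW library and 0.975 in the control library, a ratio of 0.873 (0.833 to 0.915).

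The class Ib rows are taken here as all class I rows other than H2-K1 and H2-D1, mostly less polymorphic relatives of those heavy chains. They include the pseudogene H2-K2 and the H2-L row, which had no counts. Of 10 measured, 2 were called higher and 2 lower, near the 17.3% and 14.9% of all measured genes. H2-T10 had 138 counts in the AEW library and 46 in the control library and was 1.83-fold higher (1.30 to 2.62). H2-Q9 had 110 counts in the AEW library and 39 in the control library and was 1.72-fold higher (1.19 to 2.55). H2-Q1 had 24 counts in the AEW library and 27 in the control library and was 1.84-fold lower (1.02 to 3.33), a call that total count scaling did not give. H2-M2 had 41 counts in the AEW library and 44 in the control library and was 1.76-fold lower (1.12 to 2.76). Summed, the 30 class Ib rows had 789 counts in the AEW library and 463 in the control library, a ratio of 1.04 (0.927 to 1.17).

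The other measured class Ib rows were not called. H2-M3, which presents formylated peptides, had 26 counts in the AEW library and 24 in the control library, a ratio of 0.662 (0.365 to 1.20). H2-T23, the heavy chain of Qa-1, had 12 counts in the AEW library and 15 in the control library, a ratio of 0.489 (0.209 to 1.12). H2-T24 had 10 counts in each library and H2-K2, a pseudogene, 12 in the AEW library and 8 in the control library. These 4 intervals all include 1, so at this depth no difference could be seen.

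H2-T22 and H2-T9 had nearly equal counts, 201 and 198 in the AEW library and 120 each in the control library. Whether the same reads were counted under both names was not tested. H2-T22 and H2-T10 encode ligands of a subset of gamma-delta T cells, though the annotation used here lists H2-T10 as a polymorphic pseudogene. H2-T22 had a ratio of 1.02 (0.812 to 1.29) and H2-T9 one of 1.01 (0.799 to 1.28). Of the 50-base stretches of H2-T22 transcripts, 34.5% also occur in another gene, mostly H2-T10, and for H2-T10 the share was 32.9%. It was 12.8% for H2-D1, 9.63% for H2-K1, 15.0% for H2-Q1 and 13.6% for H2-T23, and at most 1.61% for H2-M2 and H2-M3. Over the last 500 bases of each transcript it was 31.6% for H2-T22, 35.3% for H2-T10 and 18.8% for H2-D1. There it was 11.8% for H2-K1, 18.8% for H2-Q1, 17.9% for H2-T23 and 2.74% for H2-M2. No transcripts were found under the names H2-Q9 and H2-T9, so neither has a share. The sources used here do not say what was done with reads that match several genes, so single class Ib rows are uncertain. Reads split only among rows of the class leave the class sum unchanged. Reads dropped, counted under several rows or shared with genes outside the class would change it. Antisense genes also overlap 29.4% of H2-T22 and 27.1% of H2-T10 exonic bases.

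Among class I rows below the count limit, H2-Q4 and H2-Bl each had 5 counts in the AEW library and 1 in the control library. H2-Q10 had 3 counts in the AEW library and 5 in the control library. H2-Q7 had 3 counts and H2-M10.3 had 1 in the AEW library and 0 in the control library, and H2-T3 had 0 in the AEW library and 3 in the control library. The remaining 14 class I rows had none in either library. They were H2-L, H2-Q2, H2-Q5, H2-Q6, H2-Q8, H2-M1, H2-M5, H2-M9, H2-M11 and the other members of the H2-M10 cluster.

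Members that make and load class I peptides also divided. Of the immunoproteasome subunits, Psmb9 had 68 counts in the AEW library and 86 in the control library and was 2.07-fold lower (1.49 to 2.89). Psmb8 had 313 counts in the AEW library and 287 in the control library and was lower at a ratio of 0.666 (0.566 to 0.785). With total count scaling its log2 ratio was -0.50 and it was not called. Gm20496, on the opposite strand, overlaps 14.7% of Psmb8 exonic bases, and its part in the Psmb8 count was not tested. Psmb10 had 701 counts in the AEW library and 412 in the control library, a ratio of 1.04 (0.919 to 1.18). Each of these subunits takes the place of a constitutive one in the catalytic core.

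All 3 were lower in the AEW library relative to the constitutive subunit they replace. The quotient of Psmb8 to Psmb5 was 0.117 in the AEW library and 0.243 in the control library, 2.07-fold lower (1.74 to 2.48). That of Psmb9 to Psmb6 was 0.0245 in the AEW library and 0.0555 in the control library, 2.26-fold lower (1.62 to 3.18). That of Psmb10 to Psmb7 was 0.210 in the AEW library and 0.284 in the control library, 1.35-fold lower (1.18 to 1.56). The constitutive genes themselves had ratios of 1.38 for Psmb5, 1.09 for Psmb6 and 1.41 for Psmb7, and none was called.

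The peptide transporter did not move with the class II genes. Tap2, a TAP subunit, had 263 counts in the AEW library and 107 in the control library and was higher at a log2 ratio of 0.59, just past the threshold. With DESeq2 size factors it was 0.58 and not called. Tap1, its partner, had 166 counts in the AEW library and 87 in the control library, a ratio of 1.17 (0.894 to 1.53). Tapbp, which encodes tapasin, had 1730 counts in the AEW library and 1102 in the control library, a ratio of 0.959 (0.889 to 1.04). On the opposite strand, Gm15821 overlaps 14.1% and Gm20496 4.36% of Tap2 exonic bases, and Gm19412 overlaps 24.9% of those of Tapbp. Zbtb22, on the same strand, overlaps 4.11% of those of Tapbp. The part of these genes in the Tap2 and Tapbp counts was not tested. Tap1 and Psmb9 are divergent neighbours whose annotated exons share 212 bases, yet the quotient of Psmb9 to Tap1 was 0.410 in the AEW library and 0.989 in the control library, 2.41-fold lower (1.57 to 3.71). Nlrc5, the class I transactivator, had 25 counts in the AEW library and 8 in the control library, a ratio of 1.91 whose interval of 0.835 to 4.90 includes 1.

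Genes of the same pathways outside the members were taken from 6 lists, whose counts of calls are to be read against the 17.3% of all measured genes that were higher and the 14.9% that were lower. Of 9 genes that load and trim class I peptides, 1 was lower, the aminopeptidase Erap1 at 1.71-fold (1.22 to 2.40), and none was higher. The chaperone Canx had a ratio of 0.876 (0.839 to 0.914) and the thiol oxidoreductase Pdia3 one of 1.13 (1.07 to 1.19). Of 7 constitutive proteasome, activator and assembly genes, 1 was higher, the activator Psme3 at 1.71-fold (1.49 to 1.96). The medians of these lists were -0.01 and 0.28 on the log2 scale, beside 0.03 for all measured genes.

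Of 13 class II transcription and maturation genes, 3 were lower and 2 higher, near the shares of all measured genes, with a median log2 ratio of -0.05. Ctss, the cathepsin that trims the invariant chain, had 469 counts in the AEW library and 1177 in the control library and was 4.11-fold lower (3.69 to 4.58). March1, a ubiquitin ligase that removes class II from the surface, had 12 counts in the AEW library and 51 in the control library and was 6.96-fold lower (3.66 to 14.3). Rfxap, a subunit of the factor that binds the X box, was 1.78-fold higher (1.42 to 2.25), and the endosomal protease Lgmn was 1.66-fold higher (1.48 to 1.85). Apart from Rfxap, the factors of this list that bind the X and Y boxes, Rfx5, Rfxank, Nfya, Nfyb, Nfyc and Creb1, were called neither higher nor lower.

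Of 14 measured interferon and transcription control genes, 3 were lower and 1 higher, with a median log2 ratio of -0.21. Irf8, a transcription factor of myeloid cells, was 3.55-fold lower (2.84 to 4.46) and the interferon receptor chain Ifnar2 was 1.66-fold lower (1.48 to 1.86). Cxcl10, an interferon-induced chemokine, had 49 counts in the AEW library and 12 in the control library and was 2.49-fold higher (1.31 to 5.15). The signal transducer Jak1 had a ratio of 1.05 (1.01 to 1.09), and Ifng had 0 counts in both libraries. Of 5 measured MHC-like genes outside the H2 prefix, none was called, with a median log2 ratio of -0.45. They ran between the neonatal Fc receptor Fcgrt at a ratio of 0.681 (0.619 to 0.751) and the metabolite-presenting Mr1 at 1.06 (0.772 to 1.48). Of 5 measured T cell, NK cell and costimulation genes, 2 were lower, Icam1 at 2.54-fold (1.84 to 3.53) and Cd86 at 2.86-fold (1.61 to 5.24). The genes of the CD3 chains of T cells had few counts. Cd3d had 13 in each library, Cd3e 9 in the AEW library and 3 in the control library, and Cd3g 6 and 7.

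Markers of macrophages were lower in the AEW library, as were the classical class II genes and, as given below, markers of fibroblasts. Of 16 macrophage markers 15 were measured. Of these 14 were lower in the AEW library and none higher, where 14.9% and 17.3% of all measured genes were. The median log2 ratio of the measured markers was -1.26. The sum over all 16 markers was 316.5 CPM in the AEW library and 779.6 CPM in the control library, and no marker was at 0 in either. The range ran from Mrc1 at 3.26-fold lower (2.81 to 3.78) to Cd163 at a ratio of 0.739 (0.576 to 0.951), which was not called. The quotient of class II to macrophage marker counts was 1.11 in the AEW library and 0.906 in the control library, a ratio of 1.22 (1.16 to 1.29). So class II counts were lower by less than the marker sum. For class I the same quotient was 1.89 in the AEW library and 0.890 in the control library, a ratio of 2.12 (2.02 to 2.23).

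Dendritic cell markers went both ways. Of 8 measured, 4 were lower and 1 higher, where 14.9% and 17.3% of all measured genes were. The sum over the list was 35.6 CPM in the AEW library and 53.6 CPM in the control library. Clec9a was 4.58-fold lower (2.16 to 10.6) and Clec10a 2.44-fold lower (2.03 to 2.95), while Flt3, the receptor of a dendritic cell growth factor, had 161 counts in the AEW library and 35 in the control library and was 2.81-fold higher (1.94 to 4.18). Of the B cell markers 3 of 8 were measured, with a sum of 5.06 CPM over the list in the AEW library and 11.5 CPM in the control library. Cd79b was 3.10-fold lower (1.73 to 5.72), and Pax5 was at 0 in both. In bulk samples, fewer cells of a type and less RNA per cell cannot be told apart, and the part of these cells in the class II difference was not tested.

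**Figure D4:**
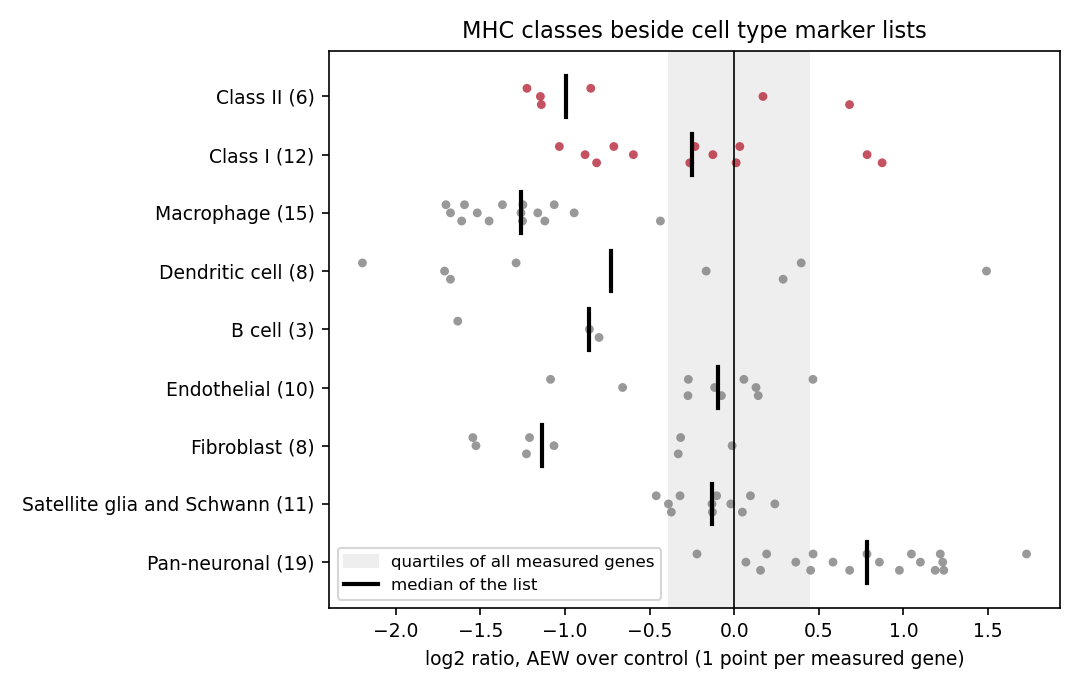
Log2 ratio of the AEW library over the control library for each measured gene of the MHC classes and of 7 cell type marker lists, with the median of each list as a bar and the quartiles of all measured genes (-0.39 to 0.44) shaded. The class II median of -0.99 lies below the medians of dendritic cell markers at -0.73 and B cell markers at -0.86. It lies above those of fibroblast markers at -1.14 and macrophage markers at -1.26. The class I median of -0.25, which is 0.02 over rows with at least 100 counts, lies within the quartiles, as do those of endothelial markers at -0.10 and glial markers at -0.13, and pan-neuronal markers lie at 0.78.

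Markers of some other cell types differed between the libraries as well, although both are labelled as neurons. Counts of calls are again to be read against the 17.3% of all measured genes that were higher and the 14.9% that were lower. All 19 pan-neuronal markers were measured, 11 higher and none lower, and took 1.61% of AEW counts and 0.971% of control counts. Markers of satellite glia and Schwann cells took 2.67% of AEW counts and 2.85% of control counts, with none of 11 called. Of 10 endothelial markers 2 were lower, near the share of all measured genes. The quotient of class I to endothelial counts was 3.10 in the AEW library and 3.33 in the control library, a ratio of 0.933 (0.872 to 0.997). Fibroblast markers were lower in 5 of 8, and none was higher. Their sum was 2.08-fold lower in the AEW library (2.07 to 2.10), beside 2.02-fold for the class II sum and 2.46-fold for the macrophage sum. Apod was 2.92-fold lower (2.87 to 2.96) and Lum 2.88-fold lower (2.73 to 3.04), while Col1a1 had a ratio of 0.992 (0.963 to 1.02). The 13 keratinocyte and hair genes of the list summed to 12554 counts in the AEW library and 227 in the control library. The part of these shifts in the class I and class II values was not tested.

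Scaling on another cell type turned the direction of several members. With the pan-neuronal median set to 0, which moved the median of all measured genes to -0.75, the summed class I log2 ratio was -0.9997 and that of class II -1.80. With the macrophage median set to 0, which moved the median of all measured genes to 1.29, they were 1.04 and 0.25. The class II to class I quotient is the same under each of these scales.

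The H2 members with a symbol in the annotation, 38 in all, lie on chromosome 17 between 33974659 and 37483552 on mm10. Of the 85 measured non-member genes in this interval 27 were higher in the AEW library and 7 lower, with a median log2 ratio of 0.22, beside 17.3% higher, 14.9% lower and a median of 0.03 among all measured genes. Neighbours chosen after their values were seen include the complement gene C2 at a ratio of 0.468 (0.385 to 0.568) and Cdsn, a gene of the cornified skin layer, at 454 counts in the AEW library and 4 in the control library.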

How the data were processed

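The authors deposited raw counts per gene symbol, 1 file for each of the 2 libraries, with the same 23282 rows in each. Libraries were made with a Lexogen QuantSeq kit from Trizol-extracted total RNA, per the labels' protocols. Bowtie2, bedtools and mm10 are named per the submitters' processing notes. The sources used here give neither their roles and versions nor the annotation, nor how strand, duplicates and multiply matching reads were treated. The series text says RNA was pooled over 6 mice per group.

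TMM factors from edgeR 4.0.16 (R 4.3.3) scaled the totals. They were 1.03 for the AEW library and 0.970 for the control. Ratios are scaled CPM of the AEW library over the control, with exact 95% intervals from the conditional binomial distribution (Clopper-Pearson), computed in scipy 1.17.1. Quotients have exact conditional odds ratio intervals. Simulated data with known changes and only counting error served to test the calling, so that test does not cover spread between animals or libraries. A row with 0 counts could hold up to 3, 0.202 CPM in the AEW library and 0.331 CPM in the control. Reads without molecular identifiers are not independent molecules, and all limits cover counting error only. Symbols that occurred more than once, 35 in all, were left out of the counts over all genes.

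Class II took H2-A, H2-E, H2-DM and H2-O rows, class I the other H2 rows. Every measured member is named. From each of 14 lists up to 4 genes with the extreme interval bounds were picked for naming, though not every picked gene is named. Further genes were chosen after their values were seen. Members, lists and rules were chosen with earlier results of these data known. Coordinates are from GENCODE M21, which matched 48 of the 52 members, and are 1-based. Promoters are from RefSeq on GRCm38.p6.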

Additional observations from a re-analysis of the deposited data

How the results depend on the processing

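No paired analysis was possible because each group is 1 library. Counts of calls were within 1.5 times those reported, 3 higher and 9 lower, under DESeq2 1.42.0 size factors, total counts, upper quartile factors, totals without keratin, haemoglobin, ribosomal protein and Rn45s rows, no minimum count, a minimum of 100, and AEW counts thinned at random to the control total. Requiring an interval that excludes 1.5-fold left 0 higher and 5 lower (H2-Aa, H2-Ab1, H2-Eb1, H2-DMb1 and Cd74), where 8.93% and 7.21% of all measured genes were. A 2-fold ratio left 0 and 4, where 8.23% and 6.85% of all were. Both are stricter forms of the calling rule. The limit of 3 scaled median absolute deviations left 0 and 0, where 1.09% and 0.491% of all were. It also sets each gene against the spread of genes of like expression. Scaling on pan-neuronal markers gave 0 higher and 20 lower, where 3.64% and 58.9% of all measured genes were, with a class I median log2 ratio of -1.03 and sum of -0.9997 and a class II median of -1.78 and sum of -1.80. Scaling on macrophage markers gave 15 higher and 0 lower, where 83.7% and 0.687% of all measured genes were, with a class I median of 1.01 and sum of 1.04 and a class II median of 0.27 and sum of 0.25. These scales shift every gene by -0.78 and 1.26. On the macrophage scale the log2 ratio turned to 0.11 for H2-Aa, 0.41 for H2-Ab1, 0.035 for H2-Eb1, 0.12 for H2-DMb1, 0.50 for Cd74, 0.21 for Psmb9, 0.67 for Psmb8, 0.38 for H2-Q1 and 0.45 for H2-M2, and on the pan-neuronal scale to -0.20 for Tap2. The class II median was -1.14 with no filter, with the minimum of 100 and for classical rows alone, and the class I median turned to 0.02 with the minimum of 100. The class II sum was -0.93 under total counts and -1.08 for classical rows, and the class I sum -0.13 under total counts. The log2 of the class II to class I quotient was -0.69 without H2-Aa and H2-D1. Psmb8 lost its call in 2 scalings and the thinned data, Tap2 in 2 scalings and the thinned data, H2-Q1 under total counts and H2-M2 in the thinned data. Leaving out H2-T9, chosen after seeing the data, gave a class I median of -0.26 and sum of -0.22, and was not run for the quotient. Depth limits the class Ib rows, H2-Ob, H2-Oa, Ciita and Nlrc5.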
